A study of Mus musculus with 19 samples.

Results

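Xirp1 and Xirp2, the genes of the Xin actin-binding repeat proteins, and Nrap, the gene of the nebulin-related anchoring protein, were followed through 5-hydroxymethylcytosine (5-hmC) peak lists of mouse cardiomyocytes (CMCs). They are 3 of 21000 protein-coding genes with a curated transcript, chosen by name with earlier results of these data known. A peak belonged to a gene when it overlapped the gene span plus 10 kb upstream of its transcription start site (TSS), its window here, and the measure was the percent of the window lying under peaks. DNA of CMCs isolated from the ventricles of C57BL/6J male mice was immunoprecipitated with an antibody to 5-hmC and sequenced (hMeDIP-seq), with 2 biological replicates at each of 4 points. The points were E14.5 embryos, neonatal pups (1 to 2 days old), adults (2 months old) and adults on which transverse aortic constriction (TAC) had been performed 1 week earlier, an operation that narrows the aorta and overloads the left ventricle. TAC was compared with the adult point, and no list labelled sham was used here. E14.5 and neonatal CMCs came from collagenase-digested ventricles after non-myocytes had been left to adhere, and adult and TAC CMCs from perfused left ventricles after settling by gravity, so that developmental stage and isolation method cannot be told apart between the 2 early and the 2 late points.

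Xin repeats bind and stabilise filamentous actin. Xirp1 (Xin) and Xirp2 (myomaxin) are striated muscle proteins that collect at the intercalated disc, the junction at which CMCs are joined end to end, where they bind the catenin complex of the adherens junction. Nrap carries a LIM domain and nebulin-like actin-binding repeats. It is found in nascent myofibrils, where it brings actin and alpha-actinin together, and at the intercalated disc and myotendinous junction of mature muscle. 5-hmC is made from 5-methylcytosine by the TET enzymes, and gene bodies are a known place of it.

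The 8 lists held between 104215 and 153637 peaks and covered 2.46% to 4.48% of the known bases of the genome, with a median peak width of 501 bp in every list. The lists carry no read depth, so the precision behind a single peak is unknown. TAC replicate 2 stood apart: it covered the smallest share of the genome, and 10.99% of its peaks were at least 800 bp wide, against 16.5% to 25.5% in the other lists. In the windows of the 3 genes its 20 peak centres lay a median of 324 bp from the nearest centre of another list, while the medians of the other 7 lists, with TAC replicate 2 left out as a target, were 45.8 to 136 bp. The tests and the comparison of TAC with adult CMCs are given with and without it. Of the markers of the labelled cell type, at least 7 of 8 CMC genes held a peak in every list, and their mean coverage lay at 16.9% and 23.1% for E14.5, 27.4% and 29.4% for neonates, 11.8% and 18.5% for adults and 9.35% and 13.0% for TAC. The CMC gene without a peak was Pln, in E14.5 replicate 2, neonatal replicate 2, adult replicate 2 and both TAC lists. The mean over 7 fibroblast markers was 2.63% and 4.04%, 2.52% and 4.03%, 1.14% and 2.56%, and 2.29% and 1.85% at the same points. Of these markers, Tcf21 was at 0 in 7 of the lists and Vim in the E14.5 lists alone. Pdgfra, Dcn and Postn were at 0 in some lists, and Col1a1 and Col1a2 in none. The mean over 5 endothelial markers ranged from 4.55% to 12.6%. The means over 2 smooth muscle and 2 blood markers were 2.27% to 10.2% and 0% to 3.01%, with Hbb-bs at 0 in 7 of the lists and Ptprc in TAC replicate 1 alone. Their part in the results was not tested.

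The windows differ in size and in CpG content. Xirp1 lies on the minus strand of chromosome 9 (mm10 chr9:120013755-120023598), spans 9.84 kb and has 3 exons. Exon 2, of 3394 bp, holds 3390 of its coding bases. Xirp2 lies on the plus strand of chromosome 2 (chr2:67446002-67526606), spans 80.6 kb, and holds most of its coding sequence in exon 7, of 9265 bp. Nrap lies on the minus strand of chromosome 19 (chr19:56320041-56390038), spans 70.0 kb and is split into many exons of about the length of a repeat unit. CpG dinucleotides numbered 1.59 per 100 bp in the Xirp1 window, 0.785 in that of Xirp2 and 1.63 in that of Nrap, against 0.826 in the genome.

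The sequences below, read from the GRCm38 (mm10) reference along the strand of each gene, show the DNA on which the peaks of different lists met, with CpG dinucleotides, the usual site of 5-hmC, in capitals. For each gene the first is the interval of at least 100 bp, outside untranslated exon sequence, that lay under peaks of the most lists, cut to its central 300 bp where longer. For Xirp1 this is chr9:120016026-120016277, minus strand, the end of intron 2 and the 9 coding bases of exon 3, under peaks of 5 lists (both E14.5, both neonatal and TAC replicate 1), with 4 CpGs. For Xirp2 it is chr2:67467378-67467531, plus strand, in intron 1, also under peaks of 5 lists (both E14.5, both neonatal and adult replicate 2), with 1 CpG. For Nrap it is chr19:56385904-56386203, minus strand, exon 4 with its flanking introns, under peaks of 7 lists (TAC replicate 2 lacked it), with 11 CpGs. The long coding exons of the Xin genes are shown by the 300 bp under the most lists and, among those, with the most CpGs: chr9:120019372-120019671, minus strand, in exon 2 of Xirp1, with 18 CpGs and 3 lists (E14.5 replicate 1 and both neonatal), and chr2:67513522-67513821, plus strand, in exon 7 of Xirp2, with 1 CpG and 4 lists (E14.5 replicate 2, both neonatal and adult replicate 1).
Xirp1 intron 2: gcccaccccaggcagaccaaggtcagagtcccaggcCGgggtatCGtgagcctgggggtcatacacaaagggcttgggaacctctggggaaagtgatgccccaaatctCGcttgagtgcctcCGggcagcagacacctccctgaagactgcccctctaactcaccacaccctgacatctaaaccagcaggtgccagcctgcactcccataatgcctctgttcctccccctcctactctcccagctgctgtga
Xirp1 exon 2: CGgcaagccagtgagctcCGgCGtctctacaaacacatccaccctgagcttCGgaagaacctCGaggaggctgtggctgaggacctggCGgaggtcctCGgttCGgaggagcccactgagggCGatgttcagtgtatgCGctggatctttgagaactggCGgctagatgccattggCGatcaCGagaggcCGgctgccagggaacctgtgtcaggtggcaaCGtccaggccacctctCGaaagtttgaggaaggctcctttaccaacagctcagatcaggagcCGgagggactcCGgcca
Xirp2 intron 1: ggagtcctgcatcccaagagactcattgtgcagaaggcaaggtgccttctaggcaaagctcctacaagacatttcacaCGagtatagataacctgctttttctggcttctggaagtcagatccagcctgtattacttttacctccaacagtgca
Xirp2 exon 7: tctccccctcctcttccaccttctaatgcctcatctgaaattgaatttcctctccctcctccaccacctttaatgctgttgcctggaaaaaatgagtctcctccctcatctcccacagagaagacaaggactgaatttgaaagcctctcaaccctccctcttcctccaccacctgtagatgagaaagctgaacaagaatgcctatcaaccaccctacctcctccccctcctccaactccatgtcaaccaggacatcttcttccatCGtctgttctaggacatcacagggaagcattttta
Nrap exon 4: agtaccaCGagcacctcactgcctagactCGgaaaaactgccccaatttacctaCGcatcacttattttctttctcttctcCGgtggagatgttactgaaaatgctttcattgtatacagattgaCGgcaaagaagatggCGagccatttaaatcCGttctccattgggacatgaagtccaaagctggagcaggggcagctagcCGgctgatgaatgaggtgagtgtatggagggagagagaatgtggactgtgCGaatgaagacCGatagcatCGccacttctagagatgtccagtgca

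The Xirp1 window lay under peaks to a much larger share in the E14.5 and neonatal lists than in the adult and TAC lists. The E14.5 replicates had 27.9% and 18.7% covered, the neonatal ones 34.2% and 38.2%, the adult ones 6.47% and 2.16%, and those after TAC 7.34% and 2.52%. All 4 early libraries were above all 4 late ones, and the neonatal pair was above the E14.5 pair. The means were 23.3% ± 6.49 (SD, n = 2) for E14.5, 36.2% ± 2.85 for neonates, 4.31% ± 3.04 for adults and 4.93% ± 3.40 for TAC, so that the adult mean was 0.119 times the neonatal mean. Less 5-hmC per CMC and a smaller share of CMCs in a preparation cannot be told apart in such bulk DNA. In the early lists the gene ranked between the 96.9th and the 99.2nd percentile of the 18997 genes with a peak in any list, and in the late ones between the 33.3rd and the 70.3rd. Relative to the coverage of the whole genome in the same list, the window was 5.19 to 9.30 times enriched in the early lists and 0.590 to 2.59 times in the late ones.

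Of the 105 ways of dividing the 8 libraries into 4 pairs, 2, the true one included, gave a spread between pairs at least as large as that between the 4 points of Xirp1 (one-sided exact permutation test, p = 0.0190). The same threshold of 0.05 was met by 7.29% of all genes tested, and none passed after Benjamini-Hochberg adjustment (adjusted p = 0.601 for Xirp1, the smallest value that any gene reached). The smallest exact p that the 105 divisions allow is 0.00952, which 225 genes reached. A gene could pass the adjustment only if very many more had reached that value, so the adjusted p says little about a single gene. Without any one of the 8 libraries the exact p was between 0.0190 and 0.0476. Without both TAC libraries it was 0.0667, the smallest value that 3 pairs allow.

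Xirp2 had little coverage and the opposite order. Both E14.5 replicates had 1.66% covered, the neonatal ones 2.47% and 1.66%, the adult ones 4.04% and 3.64%, and those after TAC 7.13% and 4.21%. The 4 late libraries were all above the 4 early ones, and the TAC pair was above the adult pair. The E14.5 replicates have the same value because each held 3 peaks of 501 bp, of which 1 was shared. Mean coverage was 1.66% ± 0 (SD, n = 2), 2.06% ± 0.573, 3.84% ± 0.281 and 5.67% ± 2.07 at the 4 points in order, and the median of all genes tested was 3.78%, 4.59%, 4.33% and 3.54%. The mean of Xirp2 was thus below that of the median gene at the first 3 points and above it after TAC.

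The spread between the points of Xirp2 had an exact permutation p of 0.0286 (3 of 105 divisions, one-sided, adjusted p = 0.601, against 7.29% of genes at p of 0.05 or less). The call was kept without TAC replicate 2 (exact p = 0.0286) and lost without any other single library. Without E14.5 replicate 1 or 2, neonatal replicate 1 or adult replicate 1 or 2 the exact p was 0.114. Without neonatal replicate 2 it was 0.0952, and without TAC replicate 1 it was 0.0571. Without both TAC libraries it was 0.2. With 7 libraries any 1 of them could stand unpaired in a division, which changes the test. Dependence on the library left out therefore cannot be read from these values.

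Nrap was covered well above the median gene in every list. The E14.5 replicates had 13.5% and 10.6% covered, the neonatal ones 21.2% and 31.3%, the adult ones 18.7% and 31.9%, and those after TAC 31.7% and 11.2%. The E14.5 pair was below the neonatal and the adult pairs, while the neonatal, adult and TAC pairs overlapped one another, and the TAC replicates lay further apart than those of any other point. Mean coverage was 12.1% ± 2.05 (SD, n = 2), 26.3% ± 7.14, 25.3% ± 9.33 and 21.4% ± 14.54. The gene ranked between the 85.9th and the 98.97th percentile of the genes tested in the single lists. Over the 4 points the exact permutation p was 0.524 (55 of 105 divisions, one-sided, adjusted p = 0.878), and without any one library it was between 0.286 and 0.810.

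**Figure D1:**
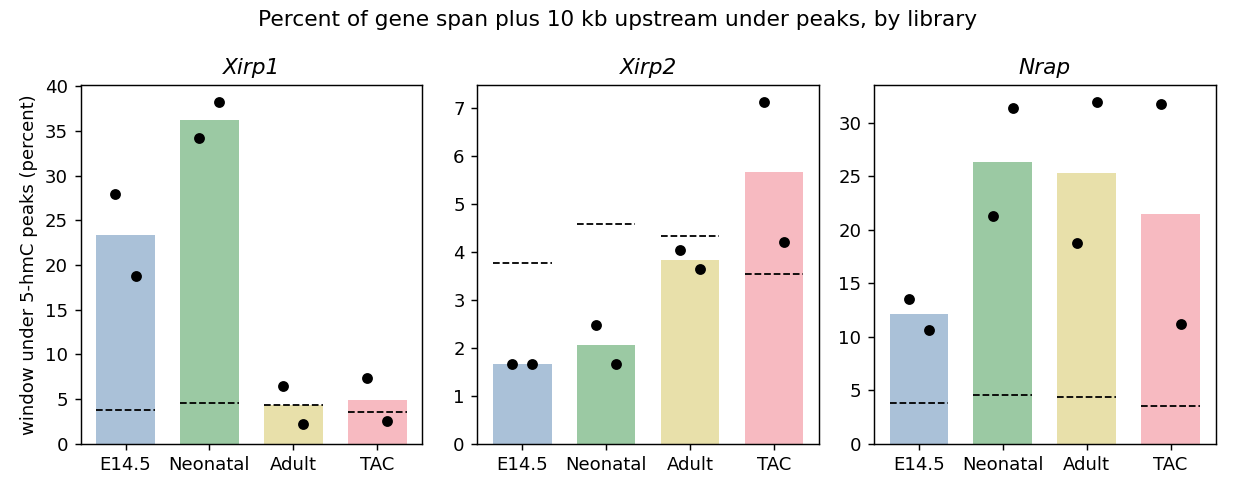
Percent of the gene span plus 10 kb upstream that lay under 5-hmC peaks (vertical axis, a separate scale for each gene) at the 4 points (horizontal axis). Points are single libraries, bars their mean and dashed lines the median of the 18997 genes tested. Xirp1 is high in the E14.5 and neonatal libraries (18.7% to 38.2%). Xirp2 is highest after TAC (7.13% and 4.21%, against 4.04% and 3.64% in adults). Nrap differs more within TAC (31.7% and 11.2%) than between the means of any points.

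That the early libraries of Xirp1 were all above its late ones, and those of Xirp2 all below, are orders that were singled out after the values were seen. The first order was met by 1328 of 18997 genes (6.99%) and the second by 333 (1.75%). Without TAC replicate 2 both genes kept their order, and the numbers of genes were 1833 (9.65%) and 1331 (7.01%).

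The peaks of the 3 genes also lay in different places. Over all lists Xirp1 had 24 peaks, of which the centre of 7 lay in an exon, 3 in an intron, 9 upstream and 5 just beyond the end of the gene. Xirp2 had 42 peaks, with 32 centres in introns, 10 in exons and none upstream of the gene in any list. Nrap had 146 peaks, with 115 centres in introns, 10 in exons, 20 upstream and 1 beyond the gene end. A peak overlapped a peak of at least 1 other list for 23 of the 24 Xirp1 peaks, 139 of the 146 Nrap peaks and 23 of the 42 Xirp2 peaks.

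**Figure D2:**
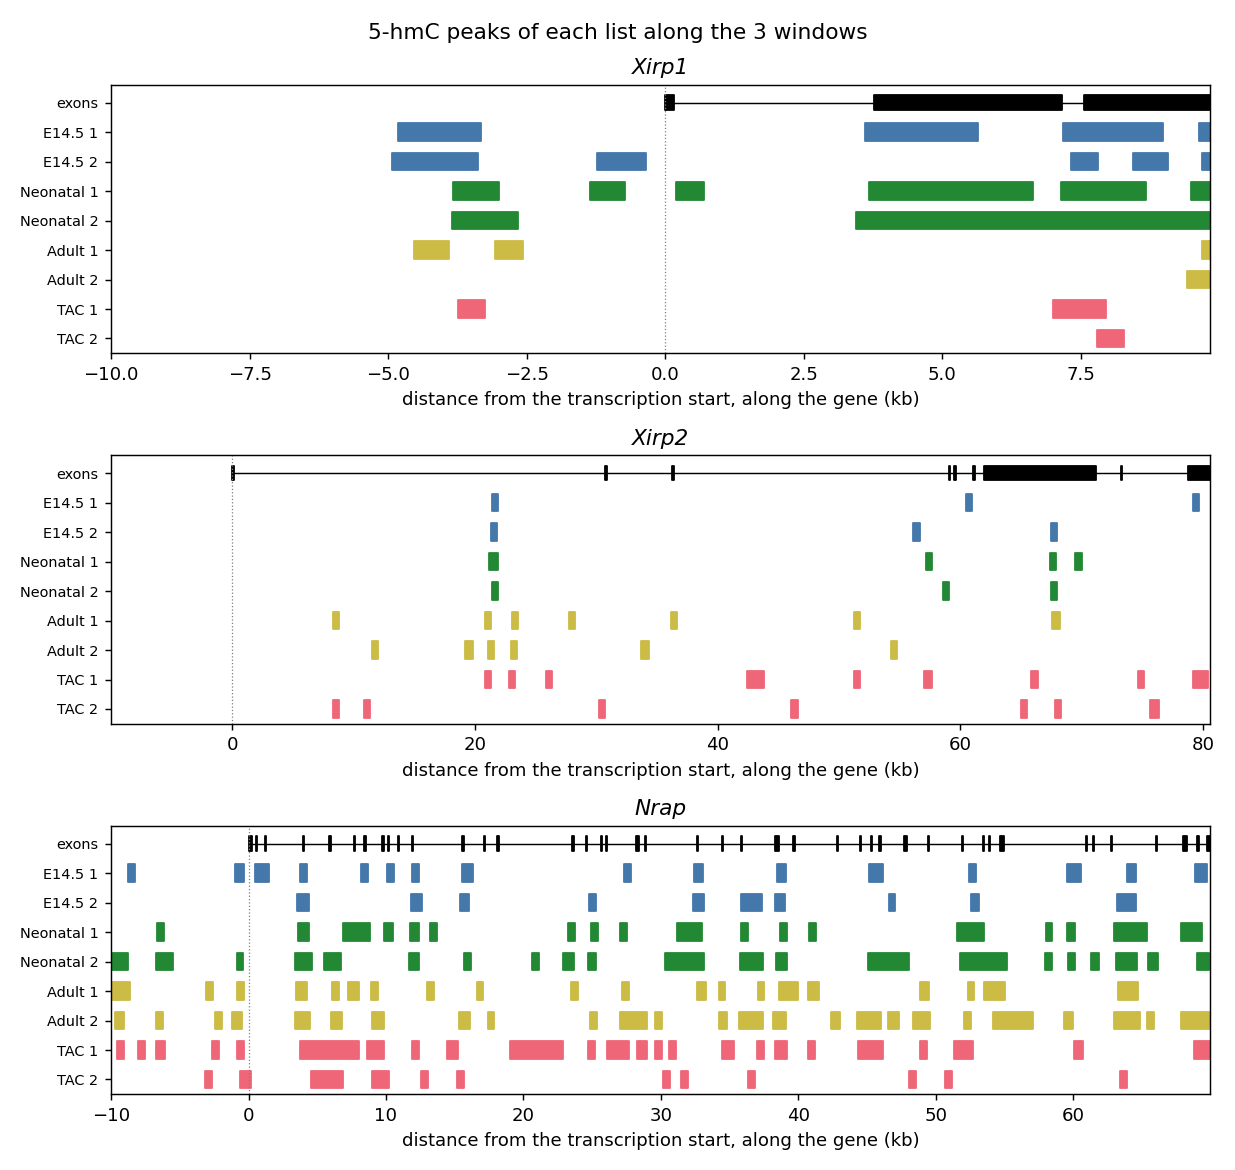
Peaks of each list (rows, coloured by point) along the 3 windows, with the horizontal axis the distance in kb from the TSS in the direction of transcription and black boxes the exons of the reference transcript. In the neonatal lists peaks cover most of exons 2 and 3 of Xirp1, Xirp2 holds 3 or 4 scattered peaks in each early list and 6 to 9 in each late list, and Nrap peaks lie along the whole gene.

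Within the gene span of Xirp1, exons held more covered bases than introns in every list, and few lists had a peak near its start. The upstream 10 kb held more covered bases than the exons in E14.5 replicate 2 (2440 against 1035 bp) and adult replicate 1 (1135 against 148 bp). The exons of Xirp1 were covered to 59.7% and 17.7% for E14.5, 74.4% and 97.2% for neonates, 2.53% and 7.35% for adults and 9.66% and 8.58% for TAC. Exon 2, which codes for the Xin repeats, was covered to 55.0% and 0% for E14.5, to 84.9% and 100% for neonates and to 4.86% in TAC replicate 1, and held no peak in either adult list or TAC replicate 2. Neonatal replicate 2 had a single peak of 7458 bp over exons 2 and 3, the 88th widest of its 153637 peaks. Neonatal replicate 1 covered much of the same DNA with separate peaks of 2948 and 1535 bp, and E14.5 replicate 1 with peaks of 2040 and 1806 bp. In the late lists the widest Xirp1 peak was 984 bp. The number of peaks was 4, 5, 6, 2, 3, 1, 2 and 1 in the 8 lists in the order of the points, which did not follow the order of coverage. These are peaks that overlap the window. Counted as peaks per 10 kb with their centre inside the window, which leaves none in adult replicate 2, the exact permutation p was 0.314.

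The upstream 10 kb of Xirp1 held at least 1 peak centred between -4.21 and -2.82 kb from the TSS in both E14.5 lists, both neonatal lists, adult replicate 1 and TAC replicate 1, and none in adult or TAC replicate 2. Its coverage was 14.95% and 24.4%, 14.6% and 11.9%, 11.4% and 0%, and 5.01% and 0% at the 4 points. Within 1 kb of the TSS, E14.5 replicate 2 and neonatal replicate 1 had 32.5% and 38.6% covered, and the other 6 lists had no peak. The Xirp1 window holds 316 CpGs, of which 128 and 72 lay under peaks of the E14.5 lists, 148 and 147 under neonatal peaks, 26 and 9 under adult peaks and 16 and 8 under peaks after TAC. Exon 2 holds 2.50 CpGs per 100 bp and exon 3 holds 1.54.

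In Xirp2, exon 7, which codes for its Xin repeats, was covered to at most 10.8% in any list and held no peak in E14.5 replicate 1 or adult replicate 2. Peaks spanning the whole of its printed 300 bp were found in 4 lists. The place with a peak in the most lists was in intron 1: both E14.5, both neonatal, both adult lists and TAC replicate 1 had a peak there, with centres 21.1 to 21.6 kb from the TSS, and TAC replicate 2 had none. These peaks did not all overlap one another: those of adult replicate 1 and TAC replicate 1 each overlapped 4 of the other lists, and ended before those of E14.5 replicate 1 and neonatal replicate 2 began. Intron coverage was 1.46% for both E14.5 lists, 1.80% and 1.45% for neonates, 4.18% and 4.81% for adults and 6.68% and 4.09% for TAC, with the late lists all above the early ones. Exon coverage did not separate the points: it was 4.19% for both E14.5 lists, 8.37% and 4.23% for neonates, 6.62% and 0% for adults and 15.7% and 8.37% for TAC. The widest Xirp2 peaks were in TAC replicate 1, 1452 bp in intron 3 and 1244 bp in exon 9, and neither was in TAC replicate 2. Of the 711 CpGs of the window, 17 and 7, 20 and 2, 54 and 41, and 107 and 31 lay under peaks at the 4 points.

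In Nrap, introns carried most of the covered bases, 7165 to 20844 bp against 621 to 2689 bp of exons in the single lists. As a share of their own length exons were covered more than introns in every list, from 11.3% in TAC replicate 2 to 48.8% in adult replicate 2, and introns from 11.1% to 32.3%. In TAC replicate 2 exons and introns were nearly equal (11.3% and 11.1%), and coding exon bases alone, at 8.86%, were below the introns. Exons of Nrap hold 3.12 CpGs per 100 bp and its introns 1.44. Peaks near the start of the gene, with centres between -0.83 and -0.22 kb from the TSS, were in 6 lists, those of E14.5 replicate 1, neonatal replicate 2 and all adult and TAC libraries. The one in TAC replicate 2 alone ran over the TSS. The widest Nrap peaks were 5020 bp at the end of the gene in adult replicate 2, 4305 bp over exons 4 to 6 and 3858 bp centred in intron 14 in TAC replicate 1, and 3431 bp in neonatal replicate 2. TAC replicate 2 had a peak of 2330 bp, the 163rd widest of its list, inside the one of 4305 bp.

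**Figure D3:**
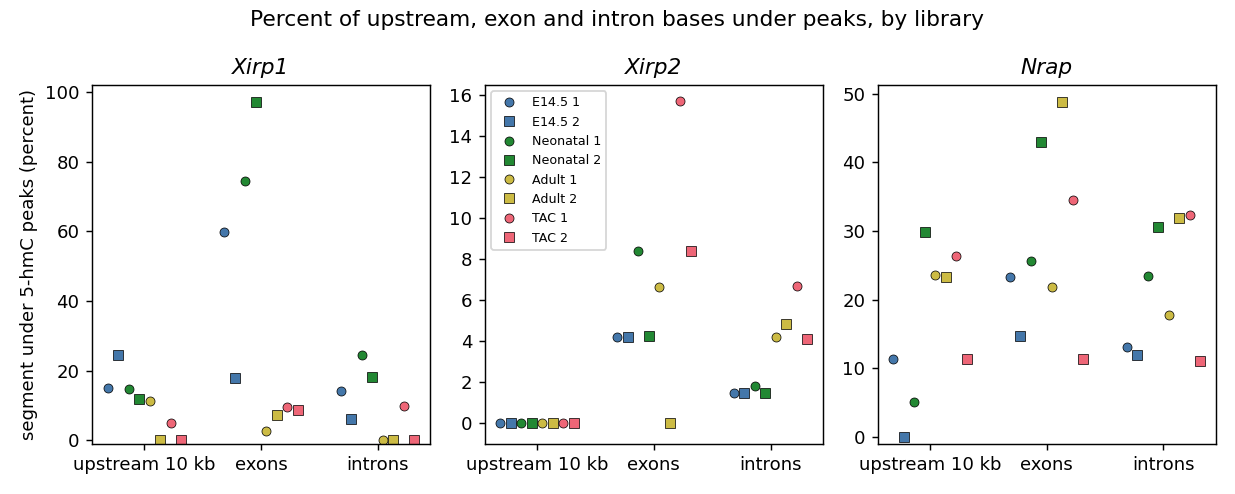
Percent of the upstream 10 kb, of exon bases and of intron bases under peaks (vertical axis, a separate scale for each gene) in each library, with circles for replicate 1 and squares for replicate 2. Exons of Xirp1 reach 74.4% and 97.2% in neonatal CMCs, the upstream region of Xirp2 is at 0 in all 8 lists, and TAC replicate 2 is the lowest library in exons and introns of Nrap.

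The base pairs under peaks of both replicates, the stricter measure used in the study, were fewer than either replicate alone (no test was made on them). Xirp1 had 2636 common bp for E14.5, 5655 for neonates, 148 for adults and 172 for TAC. The neonatal ones included the 2948 bp over exon 2 and made up 64.8% of the bases under a peak of either replicate, against 39.8% for E14.5, 9.46% for adults and 9.64% for TAC. Xirp2 had 449, 920, 726 and 0 common bp. Those at E14.5 and 501 of the neonatal ones were the intron 1 site, the other neonatal ones were in exon 7, and the 16 Xirp2 peaks of the TAC lists did not overlap between replicates. Nrap had 3826, 10141, 7830 and 3627 common bp in 7, 13, 13 and 6 regions. The largest common region of Nrap in TAC CMCs was 2330 bp centred 5.72 kb from the TSS, and the site of the printed exon 4 sequence was common to both replicates at the first 3 points.

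**Figure D4:**
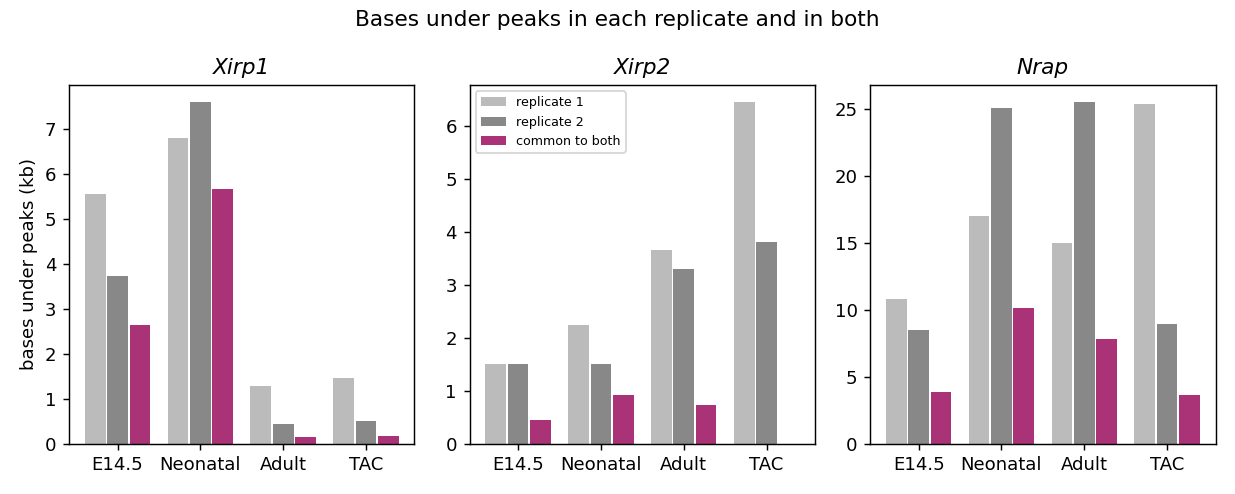
Bases of each window under peaks (vertical axis, kb, a separate scale for each gene) in replicate 1, in replicate 2 and in both, at the 4 points. The common bases of Xirp1 are 5655 bp in neonatal and 148 bp in adult CMCs, and those of Xirp2 after TAC are 0 although the replicates have 6463 and 3810 bp.

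From E14.5 to neonatal CMCs, coverage of Xirp1 was 12.9 percentage points higher and that of Nrap 14.2 points higher, each without overlap of the replicates, while Xirp2 overlapped (0.41 points). Of all genes tested 24.9% were higher and 6.63% lower without overlap, and the median difference was 0.65 points. In limma on log2(percent + 1) the differences were 0.64 ± 0.59 (SE) for Xirp1, 0.19 ± 0.49 for Xirp2 and 1.04 ± 0.55 for Nrap, with adjusted p of 0.901, 1 and 0.885. Without E14.5 replicate 2 the difference of Xirp1 was 0.36, and that of Xirp2 was 0 without neonatal replicate 1 and 0.38 without neonatal replicate 2. limma called 0 genes (0%) at an adjusted p under 0.05, with 1009 higher and 157 lower at an unadjusted p under 0.05.

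From neonatal to adult CMCs, Xirp1 coverage was 31.9 points lower and Xirp2 coverage 1.78 points higher, each without overlap, and Nrap overlapped (-0.95 points). Of all genes 21.4% were lower and 14.8% higher without overlap. On the log2 scale Xirp1 differed by -2.94 ± 0.59 (SE) in limma, with an unadjusted p of 0.00161 and an adjusted p of 0.248. Xirp2 differed by 0.67 ± 0.49 and Nrap by -0.07 ± 0.55 (adjusted p of 0.751 and 1 in limma). limma again called 0 genes (0%), with 560 higher and 972 lower before adjustment. The sign for Nrap turned without neonatal replicate 2 (0.20) and without adult replicate 1 (0.30).

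After TAC, Xirp2 was 1.83 points higher than in adult CMCs without overlap, an order that 6.12% of all genes had, while 22.4% of genes were lower without overlap. The closest libraries were TAC replicate 2 and adult replicate 1, with 3810 and 3660 bp under 7 peaks each. That gap is smaller than 1 peak of 501 bp. The order did not hold in introns, where TAC replicate 2 (4.09%) lay below both adult libraries (4.18% and 4.81%). It also had fewer CpGs under peaks, 31 against 54 and 41. In exons both TAC libraries (15.7% and 8.37%) lay above the adult ones (6.62% and 0%). Xirp1 and Nrap overlapped between adult and TAC, with differences of 0.62 and -3.90 points. In limma the log2 differences were 0.43 ± 0.49 (SE) for Xirp2, 0.16 ± 0.59 for Xirp1 and -0.35 ± 0.55 for Nrap, with adjusted p of 0.829, 1 and 0.898, and 0 genes (0%) were called, with 258 higher and 952 lower before adjustment. Single libraries moved these values. The log2 difference of Xirp2 was 0.11 without TAC replicate 1 and 0.75 without TAC replicate 2. That of Xirp1 was -0.46 without adult replicate 2 or TAC replicate 1 and 0.78 without adult replicate 1 or TAC replicate 2. That of Nrap was 0.36 without TAC replicate 2, 0.015 without adult replicate 2, -0.72 without adult replicate 1 and -1.07 without TAC replicate 1. With TAC replicate 1 as the only TAC library, Xirp2 was 3.29 points and Xirp1 3.02 points above the adult mean and above both adult libraries, as 19.1% of all genes were, and Nrap was 6.38 points above the adult mean, between the adult libraries.

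Between E14.5 and adult CMCs, Xirp1 was 19.0 points lower, Xirp2 2.18 points higher and Nrap 13.3 points higher, all without overlap. Of all genes 18.3% were lower and 26.9% higher without overlap. The log2 differences in limma were -2.30 ± 0.59 (SE), 0.86 ± 0.49 and 0.97 ± 0.55, with adjusted p of 0.196, 0.456 and 0.454 (that of Nrap was 0.60 without adult replicate 2), and 0 genes (0%) were called, with 1903 higher and 957 lower before adjustment. This comparison shares its libraries with the first 2 comparisons and is no separate evidence.

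A list of 25 genes that act with the Xin proteins and Nrap was examined alongside. It held 3 genes of the nebulin family, 19 of binding partners at the intercalated disc, Z-disc and adhesion sites, and 3 upstream transcription factors. From E14.5 to neonatal CMCs 17 of 25 (68%) were higher and 1 (4%) lower without overlap, against 24.9% and 6.63% of all genes, with a median difference of 4.30 points against 0.65. From neonatal to adult CMCs 2 (8%) were higher and 10 (40%) lower, against 14.8% and 21.4% of all genes (median -1.48 points against -0.29). After TAC 0 (0%) were higher and 9 (36%) lower, against 6.12% and 22.4% of all genes (median -2.74 points against -0.74). With TAC replicate 1 as the only TAC library, 4 (16%) were higher and 10 (40%) lower than both adult libraries, against 19.1% and 30.4% of all genes (median -1.07 points against -0.36). Between E14.5 and adult CMCs 12 (48%) were higher and 1 (4%) lower, against 26.9% and 18.3% of all genes (median 3.04 points against 0.11). Mean coverage was highest in neonatal CMCs for 16 of the 25 genes, in adult CMCs for 7, at E14.5 for 2 and after TAC for 0, against 32.2%, 31.5%, 24.6% and 11.6% of all genes. limma called none of the 25 in any comparison. The exact permutation p over the 4 points was 0.05 or less for 5 of 25 (20%, against 7.29% of all genes), namely Actn2, Ctnnb1, Ctnna1, Vasp and Mef2a, which were named after their values were seen.

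Actn2, the gene of the sarcomeric alpha-actinin that Nrap binds, was covered to 16.0% and 16.7% for E14.5, 29.0% and 29.1% for neonates, 15.5% and 27.4% for adults and 13.8% and 8.63% for TAC. Ctnnb1, the gene of beta-catenin, a Xin partner at the adherens junction, had 13.3% and 10.7%, 29.7% and 27.1%, 14.0% and 17.6%, and 13.1% and 8.84%. Both were highest in the neonatal pair, like Xirp1, but unlike Xirp1 adult coverage of both genes stayed above 10%. Kcna5, a potassium channel gene, was the partner gene furthest below E14.5 in neonatal and adult CMCs, with 9.70% and 16.9% for E14.5, 3.85% in both neonatal lists, and 3.85% and 0% in the adult ones.

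Toward the adult, Flnc, the gene of the actin crosslinker filamin C that binds Xin, was higher, at 21.6% and 29.0% in adult against 6.92% and 17.3% in neonatal and 17.4% and 3.53% in E14.5 CMCs. Tln1, the gene of the adhesion protein talin 1, was at 26.6% and 24.3% in adult and 12.9% and 21.6% in neonatal CMCs. The 2 partner genes furthest below the adult after TAC were Vasp, which codes for an actin filament elongation factor (20.1% and 23.2% in adult, 9.93% and 2.01% in TAC CMCs), and Lasp1, the gene of an actin-binding LIM and SH3 protein (22.3% and 31.7%, 20.2% and 11.99%). In both, TAC replicate 1 alone also lay below both adult libraries. None of these differences had an adjusted p under 0.05 in limma (the smallest was 0.289, for Kcna5 between E14.5 and adult CMCs). In the nebulin family, to which Nrap and Lasp1 belong, Neb and Nebl were covered to at most 3.60% and 3.96% in any list. Lasp1 had 18.4% and 24.1% at E14.5, and 17.9% and 27.1% in neonatal CMCs.

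**Figure D5:**
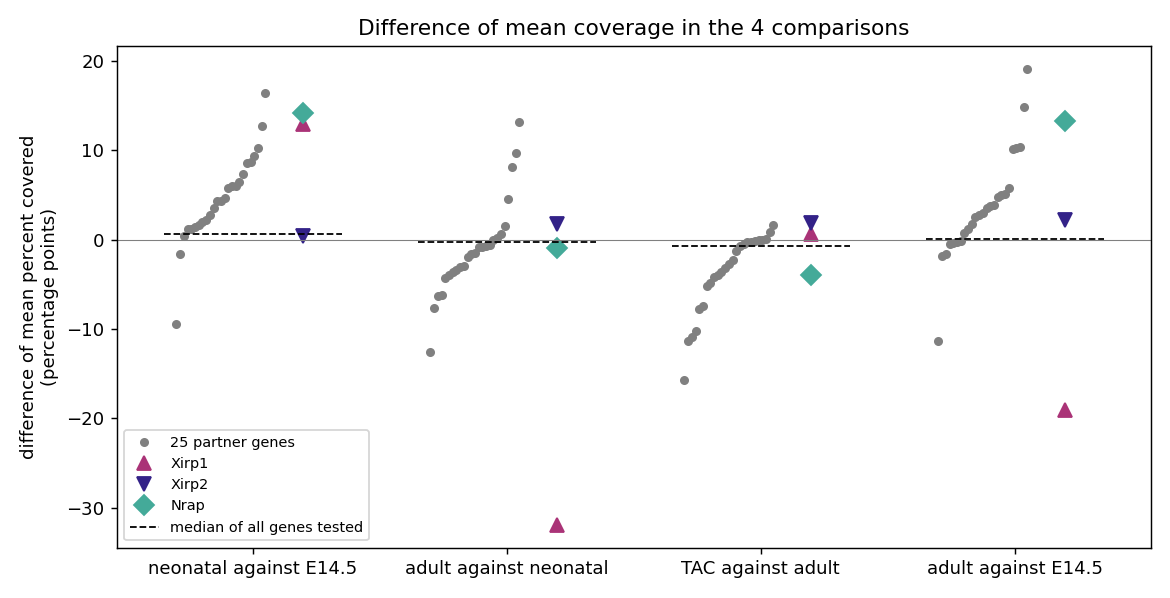
Difference of mean percent covered in percentage points (vertical axis) in the 4 comparisons (horizontal axis), for the 25 partner genes in rank order (grey points) and the 3 genes (coloured symbols), with dashed lines for the median of all genes tested. Xirp1 in adult against neonatal CMCs (-31.9 points) lies below every partner gene, and Xirp2 after TAC (1.83 points) above every one, with both TAC libraries in the mean, and the spread of the replicates is not drawn.

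Neighbours of the 3 genes are given with their distances, since some lie too far away to show the level of the surrounding DNA. Csrnp1, 29.0 kb from Xirp1, was covered to 19.2% and 13.6% for E14.5, 16.0% and 28.7% for neonates, 32.9% and 25.5% for adults and 29.0% and 25.7% for TAC, and Cx3cr1, 25.1 kb away on the other side, to between 3.38% and 5.60% in every list. Of the neighbours of Xirp2, Gm1322, 260 kb away, held a peak in TAC replicate 2 alone. B3galt1, 39.1 kb away, was covered to between 0.618% and 2.21%. On the side of the Nrap gene end, Tcf7l2, 386 kb away, was covered to between 11.7% and 32.4%.

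Among 14043 genes with a window of at least 15 kb and a peak in at least 4 lists, Ect2l (Pearson r = 0.982 over the 8 libraries) and Cdcp3 (0.975) were among the 3 whose coverage was most like that of Xirp1. For Xirp2 the 3 were Ccnk (0.978), Faf1 (0.969) and Sgk3 (0.969), and for Nrap 4930503B20Rik (0.981), Spsb1 (0.974) and Zfp775 (0.971). These values describe the 8 libraries, which share their peak calling and total coverage, and were picked as the highest of many. Spsb1 was covered to 15.9% and 16.9%, 31.0% and 48.3%, 35.0% and 57.1%, and 49.6% and 16.2% at the 4 points and, like Nrap, differed most within TAC.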

How the data were processed

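Peak lists of 8 hMeDIP-seq libraries were used. Per the labels and the methods of the study, the authors aligned reads to mm10 with BWA 0.7.4-r385, processed them with Picard and called peaks against input DNA with HOMER in its histone mode, separately for each replicate. The deposited lists give positions and a score of 1 for every peak, so no height, p-value or read count entered. The sh-control and input samples were not used here.

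Windows were the spans of curated RefSeq transcripts (GRCm38, the coordinates of mm10) plus 10 kb upstream, for 21000 protein-coding genes, of which 18997 held a peak in any list. The percent of bases under merged peaks was compared over the 4 points by an exact permutation test of the spread between pairs (one-sided, all 105 divisions of 8 libraries into pairs, called at an unadjusted p of 0.05) and between points by limma 3.58.1 in R 4.3.3 (trend and robust, log2(percent + 1), called at an adjusted p of 0.05), with Benjamini-Hochberg adjustment over all genes tested. With 2 libraries against 2, the smallest two-sided permutation p for a single gene is 0.333, so none was computed for single comparisons. Base pairs under peaks of both replicates were described without a test. Scripts in Python 3.11.15 and R were tested on simulated data.

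The 3 genes, the list of partner genes and the markers were chosen with earlier results of these data known, and the text gives no p over a list. Genes named were the 3 members, the nebulin family, the 2 partner genes with the largest difference in each direction among those without overlap in each comparison, the 3 genes most alike in coverage and the nearest protein-coding neighbours. Some genes that this rule selects are not reported here. All listed symbols matched the annotation. Replicates are biological, as the study states. Alternatives were the gene span alone, peaks per 10 kb, relative coverage, peaks of at least 800 bp, peaks extended by 500 bp, each library left out, a replicate block, a pseudocount of 0.5, no filter and library weights.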

Additional observations from a re-analysis of the deposited data

How the results depend on the processing

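Of 45 alternatives for the 3 genes over the 4 points, 32 kept the side of the threshold. They include all those of Nrap, which had no call to lose. Most of the 13 that lost the call were for Xirp2, which kept its call in a minority of its alternatives. Counted as peaks per 10 kb the exact permutation p was 0.314 for Xirp1 and 0.0571 for Xirp2, and with peaks of at least 800 bp it was 0.143 for Xirp2. On the 3 points without TAC, where no value below 0.0667 is possible and no call could be kept, it was 0.0667 and 0.2. Without single libraries it ranged from 0.0286 to 0.114 for Xirp2, with any 1 of the 7 libraries left free to stand unpaired. The cause of this range was not tested. Correlations of the replicate deviations between points ran from -0.212 to 0.202, 3 of 6 negative. Libraries with the same replicate number thus did not deviate in a common direction over all points. Whether some points share a pairing was not tested. With the replicate block the exact permutation p was 0.0417 for Xirp1, 0.0833 for Xirp2 and 0.583 for Nrap, while limma with the block again called 0 genes in each comparison.

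Of 204 alternatives in limma 190 kept direction and side of the threshold, none made a call for the 3 genes, 10 turned the sign, and 4 gave a difference of 0 for Xirp2: 3 with peaks of at least 800 bp, which Xirp2 lacks at the first 3 points, and 1 without neonatal replicate 1. Neonatal against E14.5, Xirp1 was -0.10 by peaks per 10 kb. Adult against neonatal, Nrap was 0.16 by peaks per 10 kb, 0.24 by relative coverage and 0.017 with extended peaks, and -0.44 to 0.30 without single libraries. TAC against adult, Xirp1 ranged from -0.46 to 0.78 and Nrap from -1.07 to 0.36 without single libraries. Genes called numbered 52, 149, 96 and 156 in the 4 comparisons by gene span alone and 108, 202, 80 and 255 with no filter, 1 in adult against E14.5 by peaks per 10 kb, relative coverage, peaks of at least 800 bp and extended peaks each, and 1 in adult against neonatal with peaks of at least 800 bp. In these fits limma moved very small variances away from 0, and the cause of the calls was not tested.

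Base pairs common to both replicates at the 4 points in order were 5479, 8484, 648 and 1172 for Xirp1, 1449, 3055, 2729 and 1249 for Xirp2 and 11397, 24850, 23356 and 13766 for Nrap with peaks extended by 500 bp, an alternative that adds bases by construction. Counting peaks that overlap by at least 50% of both, they were 1602, 829, 148 and 0 for Xirp1 and 3192, 8774, 4515 and 3184 for Nrap, and did not move for Xirp2. Under that setting Xirp1 had fewer common bp in neonatal than in E14.5 CMCs, since the single wide neonatal peak of 7458 bp is not covered to 50% by any peak of the other replicate. Chosen after seeing the data, leaving out TAC replicate 2 raised the genes with all early libraries below all late ones from 333 to 1331, and the partner genes above both adult libraries after TAC from 0 to 4.

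The lists hold peak positions without depth or height, and each point has 2 replicates, so a difference that misses a threshold here is not shown to be absent.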
